A study of Homo sapiens with 15 samples.

Results

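The laminin chains, the proteins that tie laminin into the basement membrane, the integrin chains and the proteins that anchor the hemidesmosome were followed as a list of 35 genes in HaCaT cells. The genes were picked by name, with earlier results of these data known. Of the 35, 32 were found among the 17740 genes tabulated for the dose of 160 μg/mL and 33 among the 17653 genes tabulated for 320 μg/mL. Expression of ITGA5 and ITGA9 was not analysed here, and that of ITGB3 was analysed at 320 μg/mL alone. HaCaT cells are immortal keratinocytes from human skin, and the RNA of no other cells was sequenced in this series. RNA was sequenced from cells given Li-doped Ag2S NPs at 320 μg/mL, Ag2S NPs at 320 μg/mL, Li-doped Ag2S NPs at 160 μg/mL or Ag2S NPs at 160 μg/mL for 24 h, and from untreated cells (control), with 3 libraries in each of the 5 groups. The particles are silver sulfide nanoparticles (NPs) that emit near-infrared light, with or without added lithium. Whether the libraries of a group stand for separate cultures is not in the labels. The p-values thus measure no more than the spread between these libraries, which may be technical.

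Laminins are cross-shaped trimers of an α, a β and a γ chain that form the sheet under epithelial cells, and nidogen, perlecan and agrin bind them to other parts of that sheet. Basal keratinocytes hold on to it with integrins, each a pair of an α and a β chain. The pair of ITGA6 and ITGB4 sits in the hemidesmosome, where plectin and the epithelial form of dystonin connect it to keratin filaments, and the main laminin of the epidermal basement membrane contains the chains of LAMA3 and LAMB3. Integrins with the ITGB1 chain also bind laminin or collagen, while those with ITGAV bind fibronectin and the latent form of TGF-β.

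Expression was given as FPKM, a count of fragments corrected for transcript length and library size. The sum of FPKM over genes lay between 582451 and 698579 in the 15 libraries, and the highest was that of replicate 15, which received the Li-doped particle at the higher dose. Read numbers are not part of the tables, so the depth behind each value is unknown and no counting error is given. Summed over 9 keratinocyte markers, FPKM was 25280 to 30490 with Li-doped Ag2S NPs at 320 μg/mL, 14100 to 15940 with Ag2S NPs at 320 μg/mL, 11520 to 14040 with Li-doped Ag2S NPs at 160 μg/mL, 13460 to 14930 with Ag2S NPs at 160 μg/mL and 9028 to 9370 in control. Markers of other cells were low beside those of keratinocytes. Over the treated libraries and the control libraries, the 6 fibroblast markers summed to 2.11 to 7.84 and 12.99 to 16.18, the 3 endothelial markers to 0.07 to 0.81 and 3.36 to 4.01, the 4 melanocyte markers to 1.93 to 3.34 and 1.74 to 1.96, and the 5 leukocyte markers to 9.94 to 29.7 and 11.4 to 12.7. VWF, PECAM1, COL6A3, PDGFRA, PDGFRB, CD3E, ITGAL, ITGAM, DCT, MITF and MLANA stayed under 1 FPKM in all 15 libraries. The rest of the summed markers did not. DCN reached 9.09, LUM 5.84, TWIST2 4.08, CDH5 3.43, PMEL 2.64 and CD14 1.89 FPKM in their highest library. CD68, which other cells also express, reached 27.55 FPKM and made up most of the leukocyte sum. The part of these sums in the results below was not tested. In bulk RNA, fewer cells of a kind and less RNA per cell cannot be told apart.

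More members rose than fell in each of the 4 comparisons with control. A gene was tested where its mean over the 9 libraries of a dose was at least 1 FPKM, and 23 members passed this filter at each dose. With Ag2S NPs at 160 μg/mL, 13 of the 23 rose and 4 fell at an adjusted p under 0.05 (limma on log2(FPKM + 0.1), Benjamini and Hochberg over all genes tested), where 11.5% of all 11987 genes tested rose and 23.8% fell. Li-doped Ag2S NPs at 160 μg/mL raised 11 and lowered 8, where 22.6% of all genes rose and 40.6% fell. At 320 μg/mL, 15 rose and 4 fell with Ag2S NPs, where 16.2% of all 11903 genes tested rose and 36.2% fell, and 10 rose and 4 fell with Li-doped Ag2S NPs, where 17.0% rose and 44.6% fell. In either direction, 35.2% and 63.3% of all genes were called with Ag2S and with Li-doped Ag2S NPs at the lower dose, and 52.4% and 61.6% at the higher dose. The median log2 fold change of the 23 members was 0.34 with Ag2S NPs and 0.23 with Li-doped Ag2S NPs at 160 μg/mL, and 0.44 and 0.27 in the same order at 320 μg/mL. All genes tested had medians of -0.14, -0.19, -0.19 and -0.26 in those comparisons. With each library divided by its median ratio to the other libraries, which sets the median of all genes near 0, the members that rose numbered 16, 13, 17 and 17, and those that fell 4, 5, 4 and 3. Over all genes tested, that scaling gave 1918 higher and 1690 lower genes, against 1373 and 2847 as deposited, with Ag2S NPs at 160 μg/mL, and 3664 and 3605, against 2715 and 4869, with Li-doped Ag2S NPs at 160 μg/mL. At 320 μg/mL it gave 2823 and 2619, against 1923 and 4309, with Ag2S NPs, and 3322 and 3143, against 2018 and 5313, with Li-doped Ag2S NPs. The 8 members that fell with Li-doped Ag2S NPs at 160 μg/mL were 5 without replicate 1, without replicate 2 or without replicate 12. The 4 comparisons share the 3 control libraries. A fold change on this scale understates the change of genes with low FPKM.

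**Figure D1:**
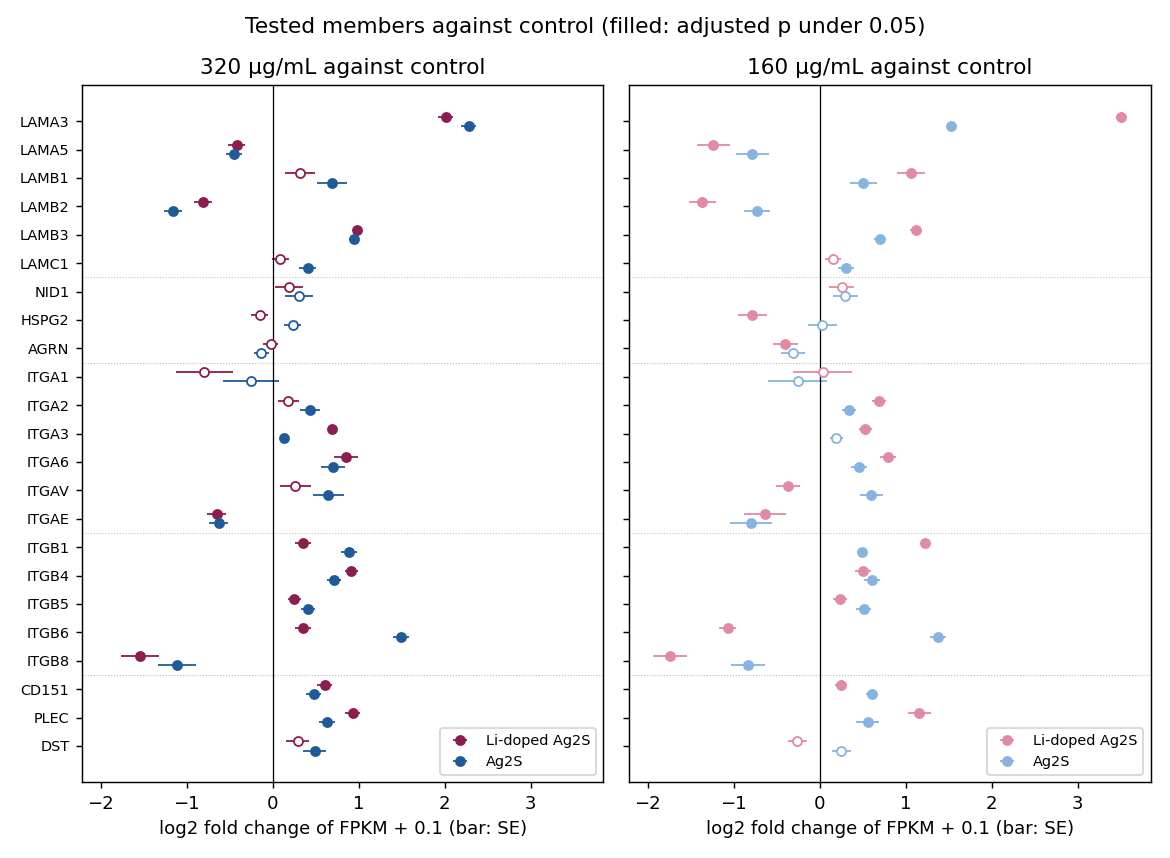
Log2 fold change against control (horizontal axis, bars are the SE of limma) of the 23 tested members (vertical axis, ordered as laminin chains, basement membrane linkers, integrin α chains, integrin β chains and hemidesmosome partners), at 320 μg/mL on the left and 160 μg/mL on the right, with filled points where the adjusted p was under 0.05. LAMA3 lies farthest to the right in both panels, from 1.53 to 3.51, and ITGB6 with Li-doped Ag2S NPs at 160 μg/mL lies on the other side of 0 from its points in the other 3 comparisons.

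LAMA3 rose more than any other member in each comparison with control. It encodes the laminin α3 chain and lies at chr18:23689443-23956222 on the plus strand (GRCh38, GENCODE 29, ENSG00000053747). LAMA3 was at 258, 264 and 208 FPKM with Li-doped Ag2S NPs and 304, 296 and 276 FPKM with Ag2S NPs at 320 μg/mL. The 160 μg/mL libraries held 709, 678 and 660.3 FPKM with Li-doped Ag2S NPs and 187, 171 and 164 FPKM with Ag2S NPs, against 59.5, 58.5 and 61.8 FPKM in control. Each treated library lay above all control libraries, and the highest were the 3 given the Li-doped particle at the lower dose. The log2 fold change over control was 2.01 ± 0.09 (SE, adjusted p = 1.2e-08) and 2.28 ± 0.09 (adjusted p = 7.3e-09) for Li-doped Ag2S and Ag2S NPs at 320 μg/mL, and 3.51 ± 0.07 (adjusted p = 3.8e-11) and 1.53 ± 0.07 (adjusted p = 2.2e-07) at 160 μg/mL, all from limma. Between the particles, Li-doped Ag2S NPs gave more LAMA3 than Ag2S NPs at 160 μg/mL, by 1.97 ± 0.07 on the log2 scale (adjusted p = 5.9e-09). At the higher dose the difference was -0.27 ± 0.09 (adjusted p = 0.039), which did not pass the test without replicate 15, at -0.16 (adjusted p = 0.058), nor without replicates 1, 2, 3, 7 or 8, where the adjusted p lay between 0.055 and 0.13.

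LAMA3 has a long form and a short form with its own start inside the gene. In the transcript tables, which hold the authors' Cufflinks estimates per transcript, LAMA3-201 encodes the short form with 1724 codons and LAMA3-202 the long form with 3333 codons. Transcripts that start at or after the first exon of the short form (9 of the 14 in the tables) summed to 239.9, 246 and 197 FPKM with Li-doped Ag2S NPs and 285, 275 and 261 FPKM with Ag2S NPs at 320 μg/mL, to 698, 665 and 648 and 166, 155 and 151 FPKM at 160 μg/mL in the same order, and to 47.4, 47.0 and 49.6 FPKM in control. Those that start upstream of it (5 of the 14) summed to 18.0, 18.3 and 11.8 FPKM with Li-doped Ag2S NPs and 19.5, 21.3 and 15.1 FPKM with Ag2S NPs at 320 μg/mL. At 160 μg/mL the upstream class held 11.7, 13.5 and 11.98 FPKM with Li-doped Ag2S NPs and 21.1, 16.4 and 12.6 FPKM with Ag2S NPs, against 12.2, 11.5 and 12.2 FPKM in control. The upstream class thus made up 6.52%, 6.35%, 1.82% and 9.53% of the LAMA3 sum with the particles, listed as Li-doped Ag2S and Ag2S NPs at 320 μg/mL and then at 160 μg/mL, against 19.9% in control. The split by start was chosen after the values were seen, and the estimates were not tested.

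**Figure D2:**
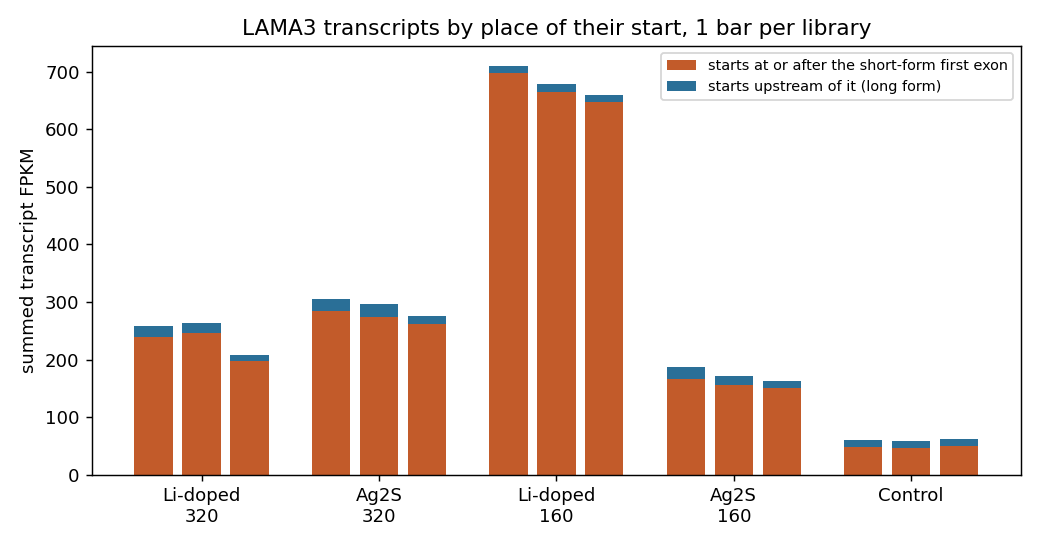
Summed FPKM of LAMA3 transcripts (vertical axis) in each of the 15 libraries, 1 bar per library, split by where the transcript starts. The upstream class (top part of each bar) stayed between 11.5 and 21.3 FPKM in every library. The class that starts at or after the first exon of the short form reached 698 FPKM with Li-doped Ag2S NPs at 160 μg/mL.

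The first coding stretch of the short form is absent from the long form. It is shown because the start of the short form was used to divide the LAMA3 transcripts. A transcript that starts farther downstream does not contain the whole stretch. The stretch covers chr18:23873045-23873215 on the plus strand (GENCODE 29, GRCh38), and the capitals mark the start codon.
LAMA3-201 first coding bases: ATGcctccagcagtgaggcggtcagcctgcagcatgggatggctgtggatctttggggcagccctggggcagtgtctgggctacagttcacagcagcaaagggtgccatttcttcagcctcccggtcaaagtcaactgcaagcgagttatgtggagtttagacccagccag

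LAMA5, the α chain of the other laminins of epidermis, was lower in all treated groups. It was at 221, 220.4 and 175 FPKM with Li-doped Ag2S NPs and 213, 194 and 194 FPKM with Ag2S NPs at 320 μg/mL. The lower dose gave 128, 116 and 105 FPKM with Li-doped Ag2S NPs and 183, 202 and 108 FPKM with Ag2S NPs, against 294, 278 and 249 FPKM in control. No treated library reached the lowest control library. The log2 fold change was -0.42 and -0.45 at the higher dose and -1.24 and -0.78 at the lower dose for Li-doped Ag2S and Ag2S NPs (limma, adjusted p at most 0.01). With libraries scaled by median ratio the fall with Li-doped Ag2S NPs at 320 μg/mL was -0.17 and did not pass the test (adjusted p = 0.11). LAMA1, LAMA2 and LAMA4, α chains known mainly from other tissues, stayed under the filter, with no library above 1.24 FPKM.

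Among the β chains, LAMB3, the partner of LAMA3, was the member with the highest FPKM in all 5 groups. LAMB3 lies at chr1:209614870-209652466 on the minus strand (GRCh38, GENCODE 29). It held 1232, 1218 and 1226 FPKM with Li-doped Ag2S NPs and 1179, 1179 and 1217 FPKM with Ag2S NPs at 320 μg/mL, and at 160 μg/mL 1309.9, 1273 and 1455 FPKM and 1031, 1027 and 958 FPKM in the same order, against 618, 630.0 and 608 FPKM in control. Every treated library was above every control library, by 0.99 ± 0.05, 0.95 ± 0.05, 1.12 ± 0.07 and 0.70 ± 0.07 on the log2 scale in that order of groups (limma, adjusted p at most 6.0e-05). The particles differed at 160 μg/mL, by 0.42 (adjusted p = 5.5e-04). For LAMB3 at 320 μg/mL the difference was 0.04, with a 95% interval of -0.08 to 0.16 (adjusted p = 0.61).

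Sequences just before the start sites were searched for 3 motifs in RefSeq windows (GRCh38.p14, 250 bases before each start, both strands). Of the 35 listed genes, 24 matched, ITGA5 among them, with 33 windows, among 35116 windows of all genes. The AP-1 motif TGANTCA was found in 6.57% of all windows and in 2 of the 33 member windows, 1 of LAMA3 and 1 of 3 of LAMB3. The SP1 motif GGGCGG was found in 42.6% of all windows and 19 member windows, and the SMAD motif CAGAC in 38.0% of all windows and 13 member windows. The AP-1 count of the members is no larger than the share of all windows would give. The windows of ITGA6, ITGB1 and ITGB5, which also rose in all 4 comparisons, had no AP-1 match. The stretches with AP-1 matches are shown because they belong to the LAMA3 and LAMB3 windows that held them. No motif contains the letters of another. A match is only a stretch of letters, and whether a factor bound there was not measured. The LAMA3 stretches lie at chr18:23872884-23872913 and chr18:23872940-23872969 (plus strand) and the LAMB3 stretch at chr1:209651423-209651452 (minus strand), with motif letters in capitals and all read 5′ to 3′.
LAMA3, farther from the RefSeq start: ctggcacaggcTGACTCAtgtgtgaagttt
LAMA3, nearer to the RefSeq start: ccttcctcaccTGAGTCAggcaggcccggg
LAMB3: gtcagccactcTGACTCAttcactttgggc

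The LAMA3 stretches lie before the RefSeq start of the short form but within the first exon that GENCODE 29 gives to LAMA3-201, and the LAMB3 stretch precedes the most downstream of its 3 RefSeq starts.

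LAMB2, a β chain of basement membranes of muscle, kidney and nerve, fell in every treated group. LAMB2 stood at 101, 100.3 and 91.7 FPKM with Li-doped Ag2S NPs and 81.1, 62.6 and 88.8 FPKM with Ag2S NPs at 320 μg/mL. The 160 μg/mL libraries held 79.3, 65.7 and 56.3 FPKM with Li-doped Ag2S NPs and 121, 115 and 79.8 FPKM with Ag2S NPs, and the control libraries 172, 170.3 and 171 FPKM. All treated libraries were below the narrow range of control. The log2 fold change was -0.81 ± 0.11, -1.16 ± 0.11, -1.36 ± 0.15 and -0.73 ± 0.15 in that order of groups (limma, adjusted p at most 0.0051). Li-doped Ag2S NPs gave less LAMB2 than Ag2S NPs at 160 μg/mL (-0.64, adjusted p = 0.0054). The Li-doped particle gave more at 320 μg/mL (0.35, adjusted p = 0.033), a call lost without replicate 8 (0.20, adjusted p = 0.083) and without replicates 1, 2, 7, 13 or 14, with adjusted p between 0.0502 and 0.0857.

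LAMB1, the β chain of many embryonic and vascular laminins, was far lower than LAMB3 and rose in 3 of the 4 comparisons. It was at 10.1, 11.9 and 7.41 FPKM with Li-doped Ag2S NPs and 13.8, 12.2 and 11.6 FPKM with Ag2S NPs at 320 μg/mL. The lower dose gave 16.7, 17.3 and 14.7 FPKM with Li-doped Ag2S NPs and 11.7, 12.9 and 8.82 FPKM with Ag2S NPs, against 9.29, 7.27 and 6.74 FPKM in control. Only Li-doped Ag2S NPs at 160 μg/mL and Ag2S NPs at 320 μg/mL kept all libraries clear of control. The changes were 1.06 (adjusted p = 1.7e-04) and 0.69 (adjusted p = 0.0066) in those groups, 0.51 (adjusted p = 0.032) with Ag2S NPs at 160 μg/mL and 0.32 (adjusted p = 0.13) with Li-doped Ag2S NPs at 320 μg/mL (limma). The call with Ag2S NPs at 160 μg/mL was lost without replicates 2, 3, 4 or 5 (adjusted p between 0.074 and 0.11), and without replicate 15 the value with Li-doped Ag2S NPs at 320 μg/mL was 0.51 and passed (adjusted p = 0.013). LAMB1 also passed in that group with median-ratio scaling. LAMC1, the γ chain of most laminins, moved little. Its mean was 61.1 ± 6.42 FPKM with Li-doped Ag2S NPs, 76.3 ± 9.77 FPKM with Ag2S NPs at 320 μg/mL and 57.2 ± 2.78 FPKM in control (SD, n = 3 each). As the values were deposited, LAMC1 rose with Ag2S NPs alone, by 0.41 at 320 μg/mL (adjusted p = 0.0061) and 0.30 at 160 μg/mL (adjusted p = 0.031). Scaled by median ratio, it also rose with Li-doped Ag2S NPs at both doses. The call at 160 μg/mL was lost without any 1 of replicates 1 to 5 (adjusted p between 0.056 and 0.11). LAMC3 was listed at 0 in 11 of the 15 libraries and reached 0.16 FPKM.

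**Figure D3:**
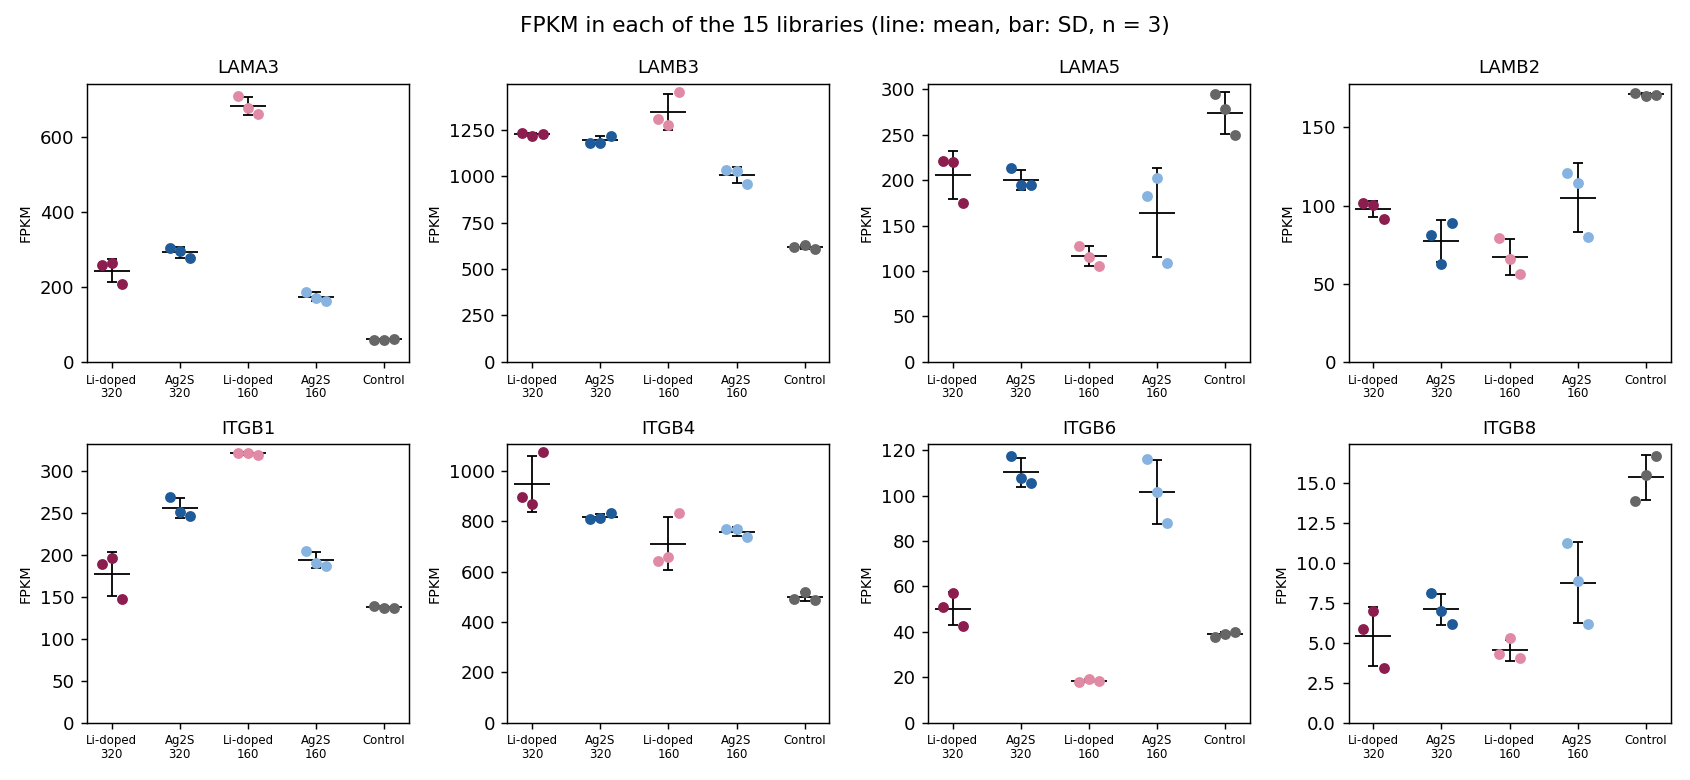
FPKM (vertical axes, from 0) of 8 members in each of the 15 libraries, with the groups from left to right as Li-doped Ag2S and Ag2S NPs at 320 μg/mL, the same at 160 μg/mL, and control (lines are means and bars the SD of 3 libraries). LAMA3 and ITGB1 are highest with Li-doped Ag2S NPs at 160 μg/mL, where ITGB6 is at its lowest, 18.1 to 19.2 FPKM.

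The α and β laminin transcripts changed in their proportions. As a share of the summed FPKM of the 5 α chains, LAMA3 made up 54.2% ± 0.337 with Li-doped Ag2S NPs and 59.2% ± 0.935 with Ag2S NPs at 320 μg/mL, 85.4% ± 0.772 and 52.1% ± 7.31 at 160 μg/mL in the same order, and 18.0% ± 1.59 in control (SD, n = 3 each). LAMA5 held 81.7% ± 1.68 of that sum in control, so the α chain with the larger share was LAMA5 in control and LAMA3 in every treated library but replicate 5, where the ratio of LAMA3 to LAMA5 was 0.848. These shares were chosen for description after the values were seen.

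Ratios of a pair of members within a library do not depend on how the library was scaled. The ratio of LAMA3 to LAMA5 was 1.17, 1.20 and 1.19 with Li-doped Ag2S NPs and 1.43, 1.52 and 1.42 with Ag2S NPs at 320 μg/mL. It was 5.56, 5.86 and 6.26 with Li-doped Ag2S NPs and 1.02, 0.848 and 1.51 with Ag2S NPs at 160 μg/mL, against 0.202, 0.211 and 0.248 in control, without overlap between treated libraries and control. LAMB2 to LAMB1 fell in the same libraries, to 10.0, 8.45 and 12.4 with Li-doped Ag2S NPs and 5.87, 5.16 and 7.67 with Ag2S NPs at 320 μg/mL, and to 4.76, 3.79 and 3.83 and 10.3, 8.87 and 9.04 at 160 μg/mL in the same order, against 18.5, 23.4 and 25.3 in control. The ratio of LAMA3 to LAMB3, whose products share a trimer, was 0.17 to 0.217 with Li-doped Ag2S NPs and 0.227 to 0.258 with Ag2S NPs at 320 μg/mL, 0.454 to 0.542 and 0.167 to 0.181 at 160 μg/mL in the same order, and 0.0929 to 0.101 in control. With 3 libraries against 3, the exact permutation test (2-sided) cannot give a p below 0.1. Over the 88 ratio comparisons made here, 11 ratios in 8 comparisons, the smallest Benjamini and Hochberg adjusted p was 0.14, so each of them stands as a description.

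**Figure D4:**
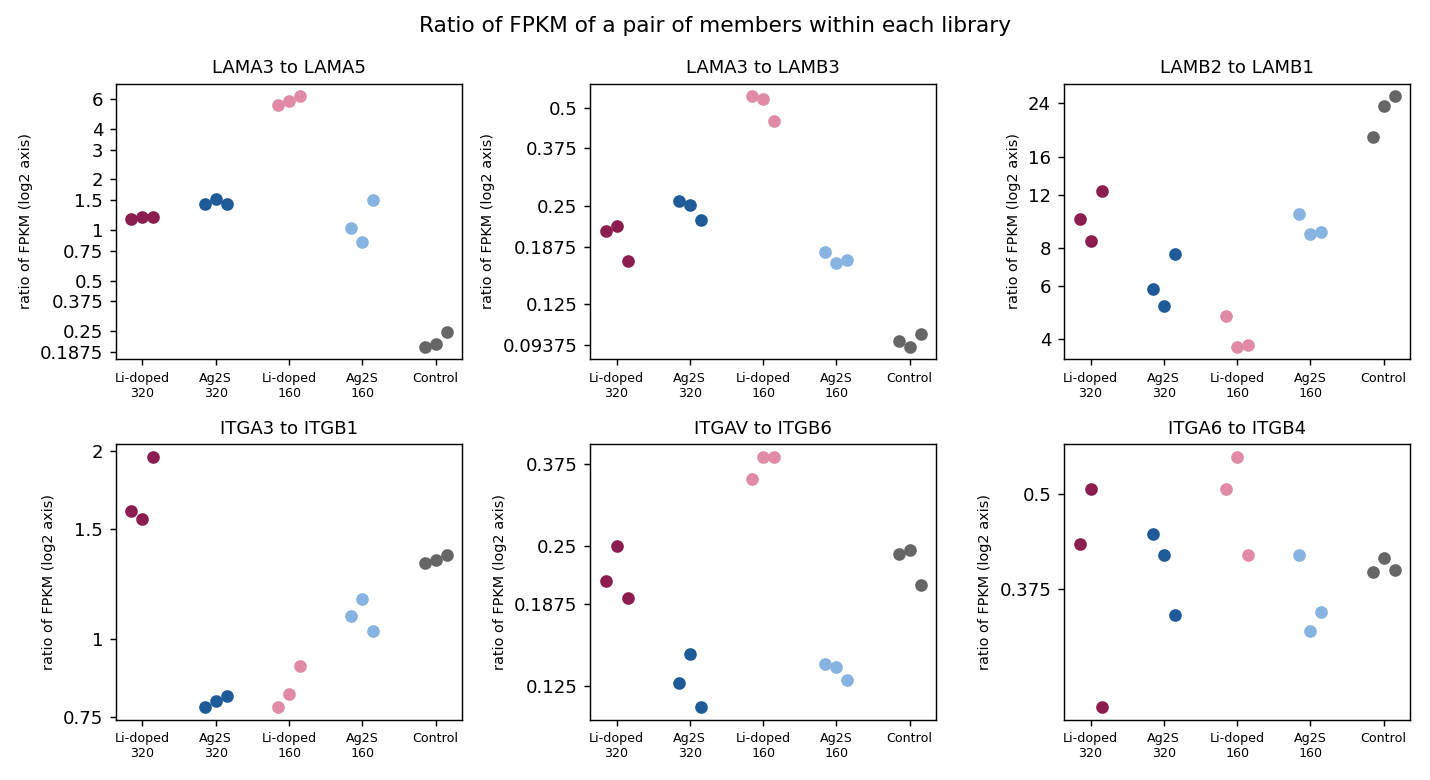
Ratio of FPKM of 6 pairs of members (vertical axes, log2 scale) in each of the 15 libraries, groups as in the plot of FPKM by library. LAMA3 to LAMA5 is at least 0.848 in all 12 treated libraries and at most 0.248 in the 3 control libraries, and ITGA3 to ITGB1 is above control with Li-doped Ag2S NPs at 320 μg/mL and below it in the other 3 treated groups.

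Of the genes for proteins that tie laminin into the basement membrane, none rose in any comparison with control as the values were deposited. NID1, which joins laminin to collagen IV, had 3.49 ± 0.531 and 3.76 ± 0.207 FPKM with Li-doped Ag2S and Ag2S NPs at 320 μg/mL against 3.02 ± 0.247 FPKM in control (SD, n = 3 each), with log2 differences of 0.19 and 0.31 (limma, adjusted p = 0.32 and 0.13). Scaled by median ratio, NID1 passed the test in all 4 comparisons, with log2 changes of 0.42 to 0.48. With that scaling HSPG2 also rose with Ag2S NPs at 320 μg/mL, and AGRN with Li-doped Ag2S NPs at 320 μg/mL. NID2 stayed under the filter, between 0.41 and 1.43 FPKM over the 15 libraries. HSPG2, which encodes the heparan sulfate proteoglycan perlecan, fell with Li-doped Ag2S NPs at 160 μg/mL, to 13.6, 20.7 and 17.4 FPKM, against 29.3, 33.8 and 25.4 FPKM in control (-0.78 ± 0.17, adjusted p = 0.0019). Ag2S NPs at that dose gave 32.4, 33.4 and 24.8 FPKM, and the particles differed by -0.81 (adjusted p = 0.0021). AGRN, the proteoglycan agrin, was at 114, 102 and 89.5 FPKM with Li-doped Ag2S NPs at 160 μg/mL and 149, 138 and 118 FPKM in control (-0.40, adjusted p = 0.029). That AGRN call was lost without replicates 1, 2, 11 or 12 and with median-ratio scaling, where the change was -0.21 (adjusted p = 0.18).

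Of the integrin α chains that bind laminin, ITGA6 rose in all 4 comparisons with control and ITGA3 in 3 of them. ITGA6, the α chain of the hemidesmosome, was at 386, 441 and 282 FPKM with Li-doped Ag2S NPs and 357, 338 and 288 FPKM with Ag2S NPs at 320 μg/mL. ITGA6 at 160 μg/mL was at 327, 368 and 346 FPKM with Li-doped Ag2S NPs and 319, 254 and 258 FPKM with Ag2S NPs, against 194, 214 and 194 FPKM in control. The treated and control libraries did not overlap, although replicate 15 had the lowest of the 3 values of its group. Log2 fold changes were 0.86 ± 0.14, 0.70 ± 0.14, 0.79 ± 0.09 and 0.46 ± 0.09 in that order (limma, adjusted p at most 0.0041). ITGA3, the α chain that pairs with ITGB1 on basal keratinocytes, was at 302, 305 and 289 FPKM with Li-doped Ag2S NPs and 209.5, 199 and 199 FPKM with Ag2S NPs at 320 μg/mL, and at 250.1, 262 and 288 and 222, 219.9 and 192 FPKM at 160 μg/mL in the same order, against 183, 183 and 186 FPKM in control. ITGA3 was higher with the Li-doped particle than with Ag2S NPs at 320 μg/mL (0.56 ± 0.05, adjusted p = 4.8e-05) and at 160 μg/mL (0.34 ± 0.08, adjusted p = 0.0036). Against control it rose by 0.70 and 0.53 with Li-doped Ag2S NPs at 320 and 160 μg/mL. With Ag2S NPs at 320 μg/mL it rose by 0.14 (adjusted p = 0.047), a call lost when replicates 1, 2, 3, 7, 8, 9, 13 or 14 were left out one at a time (adjusted p between 0.051 and 0.14) and with all 15 libraries in 1 fit (adjusted p = 0.11). With Ag2S NPs at 160 μg/mL the difference was 0.19 and did not pass (adjusted p = 0.069), although it passed without replicate 6 (0.26, adjusted p = 0.016) or without replicate 12 (adjusted p = 0.046). Median-ratio scaling also let it pass, so that ITGA3 then rose in all 4 comparisons.

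ITGA2, the α chain of a collagen receptor of keratinocytes, rose in 3 of the 4 comparisons. ITGA2 had 54.7, 62.1 and 43.5 FPKM with Li-doped Ag2S NPs and 69.0, 65.5 and 55.1 FPKM with Ag2S NPs at 320 μg/mL, and 71.8, 74.7 and 78.1 and 65.6, 58.3 and 53.0 FPKM at 160 μg/mL in the same order, against 47.4, 46.7 and 45.4 FPKM in control. It rose by 0.44 with Ag2S NPs at 320 μg/mL, and by 0.69 with Li-doped Ag2S NPs and 0.34 with Ag2S NPs at 160 μg/mL (limma, adjusted p at most 0.011). With Li-doped Ag2S NPs at 320 μg/mL the difference was 0.18 (adjusted p = 0.2), and 0.33 without replicate 15, where it passed (adjusted p = 0.012). This ITGA2 difference passed with median-ratio scaling too. ITGAV, the α chain of the receptors that bind latent TGF-β and fibronectin, stood at 6.28, 7.46 and 7.05 FPKM with Li-doped Ag2S NPs and 16.1, 13.9 and 11.3 FPKM with Ag2S NPs at 160 μg/mL, against 9.08, 9.59 and 8.24 FPKM in control. The Li-doped particle lay below control and the undoped one above it, and the particles differed by -0.97 ± 0.14 (adjusted p = 1.9e-04). Against control ITGAV rose by 0.60 with Ag2S NPs (adjusted p = 0.0079), while the change of -0.37 with Li-doped Ag2S NPs (adjusted p = 0.038) was lost without replicates 1, 2, 5, 10 or 12 and with median-ratio scaling (-0.18, adjusted p = 0.24). The libraries given 320 μg/mL held 10.7, 14.2 and 8.21 FPKM with Li-doped Ag2S NPs and 14.9, 15.8 and 11.9 FPKM with Ag2S NPs. There the Li-doped libraries overlapped control, at 0.27 (adjusted p = 0.22), while Ag2S NPs raised ITGAV by 0.65 (adjusted p = 0.011). The difference between the particles at that dose was -0.38 and did not pass the test (95% interval -0.78 to 0.01, adjusted p = 0.14). The Li-doped value passed against control without replicate 15 (0.46, adjusted p = 0.023) and with median-ratio scaling. The difference between the particles passed without replicate 14 (-0.58, adjusted p = 0.02).

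ITGAE, known as an α chain of lymphocytes in epithelia, was at 6.93 to 15.9 FPKM in the treated libraries and 15.9 to 19.3 FPKM in control. The libraries overlapped control with Li-doped Ag2S NPs at 160 μg/mL alone. ITGAE fell in the 4 comparisons, with log2 changes of -0.80 with Ag2S NPs and -0.63 with Li-doped Ag2S NPs at 160 μg/mL, and of -0.63 with Ag2S NPs and -0.65 with Li-doped Ag2S NPs at the higher dose (limma). The call with Li-doped Ag2S NPs at 160 μg/mL was lost without replicates 1 to 6 or 12 and with median-ratio scaling, where it was -0.44 (adjusted p = 0.12), and that with Ag2S NPs at 160 μg/mL without replicates 1, 3, 4 or 6 (adjusted p between 0.064 and 0.087). By the estimates per transcript, ITGAE-207 held 62.5% to 78.0% and ITGAE-208 13.8% to 23.4% of the ITGAE sum in the means of the 5 groups, and both have no coding sequence in GENCODE 29. ITGA1, of a collagen receptor, stayed between 0.71 and 2.39 FPKM, and no comparison called it. ITGA7, ITGA10 and ITGA11, known from muscle and connective tissue, were under the filter, with 2.37 FPKM as the highest single value, that of ITGA7 in replicate 11.

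Among the integrin β chains, ITGB4, the β chain of the hemidesmosome, had the highest FPKM in all groups. It was at 898, 868 and 1076 FPKM with Li-doped Ag2S NPs and 807, 813 and 832 FPKM with Ag2S NPs at 320 μg/mL, and at 643, 657 and 832 and 768, 771 and 738 FPKM at 160 μg/mL in the same order, against 491, 519.6 and 487 FPKM in control. The treated libraries were all above control, by 0.92 ± 0.08, 0.71 ± 0.08, 0.50 ± 0.09 and 0.60 ± 0.09 on the log2 scale in that order (limma, adjusted p at most 9.0e-04). Between the particles the difference was 0.21 (95% interval 0.03 to 0.38, adjusted p = 0.076) at 320 μg/mL and -0.10 (95% interval -0.31 to 0.10, adjusted p = 0.38) at 160 μg/mL. Its pairing partner ITGA6 gave a ratio of ITGA6 to ITGB4 of 0.262 to 0.508 with Li-doped Ag2S NPs and 0.346 to 0.443 with Ag2S NPs at 320 μg/mL, which overlapped the 0.395 to 0.413 of control. At the lower dose the ratio was 0.416 to 0.561 with Li-doped Ag2S NPs, above control in all 3 libraries, and 0.330 to 0.416 with Ag2S NPs, which overlapped control.

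ITGB1, the common β chain of laminin and collagen receptors, was highest with Li-doped Ag2S NPs at the lower dose. ITGB1 (chr10:32900319-33005792, minus strand, GRCh38) had 189, 196 and 148 FPKM with Li-doped Ag2S NPs and 269, 251 and 246 FPKM with Ag2S NPs at 320 μg/mL. At 160 μg/mL ITGB1 had 322, 321 and 319 FPKM with Li-doped Ag2S NPs and 204, 190.0 and 186 FPKM with Ag2S NPs, against 139, 137 and 137 FPKM in control. No treated library overlapped control. It rose by 0.36 ± 0.09 and 0.89 ± 0.09 at 320 μg/mL and by 1.22 ± 0.06 and 0.49 ± 0.06 at 160 μg/mL for Li-doped Ag2S and Ag2S NPs (limma, adjusted p at most 0.0065). The Li-doped particle gave less ITGB1 than Ag2S NPs at 320 μg/mL (-0.53, adjusted p = 0.0026) and more at 160 μg/mL (0.73, adjusted p = 2.2e-06). Within a library, the ratio of ITGA3 to its partner ITGB1 was 1.60, 1.55 and 1.96 with Li-doped Ag2S NPs and 0.779, 0.794 and 0.810 with Ag2S NPs at 320 μg/mL, and 0.777, 0.815 and 0.904 and 1.09, 1.16 and 1.03 at 160 μg/mL in the same order, against 1.32, 1.34 and 1.36 in control. It was above control in the first of these groups alone and below it in the other 3.

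ITGB6 encodes an epithelial β chain that pairs with ITGAV, and the pair is known to activate latent TGF-β. It lies at chr2:160099666-160200313 on the minus strand (GRCh38, GENCODE 29). ITGB6 stood at 18.1, 19.2 and 18.2 FPKM with Li-doped Ag2S NPs and 116, 102 and 87.8 FPKM with Ag2S NPs at 160 μg/mL, against 37.9, 39.1 and 40.0 FPKM in control. The Li-doped libraries lay below control and the Ag2S libraries above it, without overlap. Against control ITGB6 fell, with a log2 change of -1.07 with Li-doped Ag2S NPs (limma, adjusted p = 2.8e-06). It rose by 1.37 with Ag2S NPs (adjusted p = 4.5e-06). The difference between the particles was -2.44 ± 0.09 (adjusted p = 1.5e-08), the largest of the 23 members at that dose. ITGB6 at 320 μg/mL had 51.0, 56.9 and 42.6 FPKM with Li-doped Ag2S NPs and 118, 108 and 105 FPKM with Ag2S NPs, so that both were above control, by 0.35 (adjusted p = 0.0078) and 1.50 (adjusted p = 3.0e-07). The Li-doped particle was still the lower one, by -1.14 ± 0.10 (adjusted p = 2.3e-05). Within a library, the ratio of ITGAV to ITGB6 was 0.193 to 0.25 with Li-doped Ag2S NPs and 0.112 to 0.146 with Ag2S NPs at 320 μg/mL, and 0.347 to 0.388 and 0.129 to 0.139 at 160 μg/mL in the same order, against 0.206 to 0.245 in control.

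ITGB5, another β chain that pairs with ITGAV, rose in every comparison, by 0.25 and 0.42 at 320 μg/mL and by 0.23 and 0.51 at 160 μg/mL for Li-doped Ag2S and Ag2S NPs (limma, adjusted p at most 0.031). Its level was 73.2 ± 6.90, 81.6 ± 1.34, 72.2 ± 7.33 and 87.2 ± 1.40 FPKM in that order, against 61.3 ± 4.63 FPKM in control (SD, n = 3 each). The calls with Li-doped Ag2S NPs were lost without replicate 2 at 320 μg/mL (0.20, adjusted p = 0.08) and without replicates 1, 2, 10 or 12 at 160 μg/mL (adjusted p between 0.062 and 0.13). ITGB8, a β chain of an activator of latent TGF-β, fell in all 4 comparisons. ITGB8 was at 5.86, 6.99 and 3.39 FPKM with Li-doped Ag2S NPs and 8.09, 6.98 and 6.16 FPKM with Ag2S NPs at 320 μg/mL. ITGB8 at 160 μg/mL was at 4.28, 5.28 and 4.03 FPKM with Li-doped Ag2S NPs and 11.2, 8.87 and 6.18 FPKM with Ag2S NPs, against 13.9, 15.5 and 16.6 FPKM in control. All treated libraries were below all control libraries, with log2 changes of -1.54 ± 0.22, -1.11 ± 0.22, -1.74 ± 0.20 and -0.84 ± 0.20 in that order (limma, adjusted p at most 0.0085). ITGB2, a β chain of leukocytes, did not exceed 0.8 FPKM, and ITGB3 did not exceed 0.05 FPKM in the 9 libraries that list it.

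Transcripts of the proteins that anchor the hemidesmosome were mostly higher with the particles. PLEC, which encodes plectin, had 93.2, 95.2 and 84.6 FPKM with Li-doped Ag2S NPs and 77.5, 73.7 and 70.4 FPKM with Ag2S NPs at 320 μg/mL, and 105, 87.4 and 131 and 67.3, 74.7 and 68.7 FPKM at 160 μg/mL in the same order, against 51.9, 50.6 and 41.1 FPKM in control. The treated libraries were all above control, by 0.93 ± 0.09, 0.63 ± 0.09, 1.16 ± 0.14 and 0.56 ± 0.14 on the log2 scale in that order (limma, adjusted p at most 0.01). PLEC was higher with the Li-doped particle than with Ag2S NPs at 160 μg/mL (0.60, adjusted p = 0.0037). The PLEC difference at 320 μg/mL was 0.30 (adjusted p = 0.033) and was lost without replicates 7, 8, 9, 13 or 14 (adjusted p between 0.057 and 0.095). CD151, a tetraspanin that associates with laminin-binding integrins, was at 478, 464 and 580.4 FPKM with Li-doped Ag2S NPs and 435, 456 and 496 FPKM with Ag2S NPs at 320 μg/mL, and at 369, 383 and 428 and 487, 526 and 505 FPKM at 160 μg/mL in the same order, against 317, 348 and 329 FPKM in control. Each treated library was above control. CD151 rose by 0.61, 0.48, 0.25 and 0.61 in that order (limma), and the call with Li-doped Ag2S NPs at 160 μg/mL was lost without replicate 1 (0.21, adjusted p = 0.054).

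DST, the gene of dystonin, was at 63.6, 76.2 and 73.3 FPKM with Li-doped Ag2S NPs and 118, 101 and 86.2 FPKM with Ag2S NPs at 160 μg/mL, against 81.1, 87.6 and 85.8 FPKM in control. Neither passed the test against control, at -0.26 (adjusted p = 0.059) and 0.25 (adjusted p = 0.096), but they differed from each other by -0.51 ± 0.11 (limma, adjusted p = 0.0028). DST at 320 μg/mL had 109, 125 and 82.2 FPKM with Li-doped Ag2S NPs and 131, 126 and 103 FPKM with Ag2S NPs, and the rise over control passed for Ag2S NPs (0.49, adjusted p = 0.01) but not for Li-doped Ag2S NPs (0.29, adjusted p = 0.079). The particles were not distinguished there (95% interval of the difference -0.49 to 0.10). Without replicate 15 the Li-doped value was 0.46 and passed (adjusted p = 0.0023). The rise with Li-doped Ag2S NPs at 320 μg/mL also passed with median-ratio scaling, as did that with Ag2S NPs at 160 μg/mL. The transcript DST-205, with 2649 codons, encodes the epithelial form of the hemidesmosome. By the authors' estimates it averaged 56.8 and 70.6 FPKM with Li-doped Ag2S and Ag2S NPs at 320 μg/mL, 42.4 and 57.1 FPKM at 160 μg/mL, and 40.8 FPKM in control.

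The particles were compared at the same dose. At 160 μg/mL, 8 of the 23 members were higher and 8 lower with Li-doped Ag2S NPs than with Ag2S NPs, where 21.4% of all genes tested were higher and 29.0% lower, 50.4% in all. LAMA3, LAMB1, LAMB3, ITGA2, ITGA3, ITGA6, ITGB1 and PLEC were higher, and LAMB2, HSPG2, ITGAV, ITGB5, ITGB6, ITGB8, CD151 and DST lower. Of these, the call for ITGA6 was lost without replicate 5 (adjusted p = 0.052), that for LAMB1 without replicate 11 (adjusted p = 0.0504) and that for ITGB5 without replicate 10 (adjusted p = 0.051) or 11 (adjusted p = 0.076). At 320 μg/mL, 3 were higher and 5 lower, where 10.1% of all genes were higher and 16.1% lower, 26.2% in all. ITGA3, LAMB2 and PLEC were the higher ones, and LAMA3, LAMC1, HSPG2, ITGB1 and ITGB6 the lower ones. That count of 8 calls at 320 μg/mL was 3 to 5 when replicates 1, 2, 7, 8 or 13 were left out one at a time, and 3 of them, ITGA3, ITGB1 and ITGB6, passed in every fit that left out a library.

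The effect of dose was compared between the particles. Over all 15 libraries in 1 fit, Ag2S NPs at 320 μg/mL against 160 μg/mL raised 3 of the 23 members (LAMA3, LAMB3 and ITGB1) and lowered none by limma's adjusted p, where 4.84% of all 11952 genes tested rose and 7.68% fell, 12.5% in all. At an unadjusted p under 0.05, 1 member was lower, LAMB2 (-0.43, adjusted p = 0.079), which passed without replicate 6 (-0.62, adjusted p = 0.013). The call for LAMB3 was lost without replicates 6, 8 or 9 (adjusted p between 0.058 and 0.073). Li-doped Ag2S NPs at 320 μg/mL against 160 μg/mL raised 9 members and lowered 4, where 19.6% of all genes rose and 23.3% fell, 42.8% in all. The 4 that fell were LAMA3, ITGB1, LAMB1 and ITGA2, and the 9 that rose were ITGB6, LAMA5, ITGAV, HSPG2, LAMB2, DST, ITGB4, AGRN and CD151. The call for AGRN was lost without replicates 11, 12, 13 or 14 (adjusted p between 0.054 and 0.11) and that for ITGAV without replicate 14 (adjusted p = 0.051). The dose effect itself differed between the particles for 8 members, 3 with a higher and 5 with a lower value for the Li-doped particle, where 20.2% of all genes had a higher and 19.5% a lower value, 39.7% in all. The members were thus called no more often than all genes tested. LAMA3 changed by -1.49 with dose of Li-doped Ag2S NPs and by 0.75 with dose of Ag2S NPs on the log2 scale, an interaction of -2.24 ± 0.12 (adjusted p = 2.0e-09). ITGB1 changed by -0.86 and 0.40 in the same order (interaction -1.26 ± 0.12, adjusted p = 1.2e-06). ITGB6 went the other way, by 1.42 and 0.12 (interaction 1.30 ± 0.15, adjusted p = 6.7e-06).

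**Figure D5:**
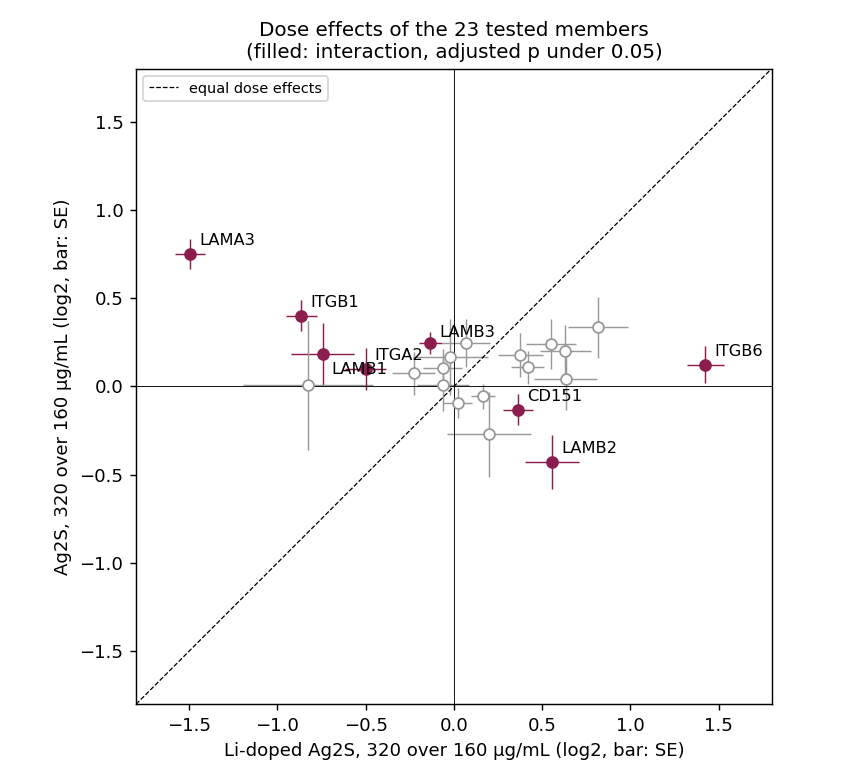
Log2 change of the 23 tested members at 320 over 160 μg/mL with Li-doped Ag2S NPs (horizontal axis) and with Ag2S NPs (vertical axis), bars are the SE of limma, filled and named for the 8 members whose dose effect differed between the particles at an adjusted p under 0.05. LAMA3 and ITGB1 lie up and left of the dashed line of equal effects, and ITGB6 lies far to the right at 1.42 and 0.12.

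Other genes of the same structures were counted by list. At 320 μg/mL, 17.0% of all genes tested rose and 44.6% fell with Li-doped Ag2S NPs, and 16.2% rose and 36.2% fell with Ag2S NPs. At 160 μg/mL, 22.6% rose and 40.6% fell with Li-doped Ag2S NPs, and 11.5% rose and 23.8% fell with Ag2S NPs. Of 16 other genes of the hemidesmosome and basement membrane, 10 were tested, and 8 rose and 0 fell with Li-doped Ag2S NPs, likewise 8 and 0 with Ag2S NPs at 320 μg/mL, and 6 and 1 with Li-doped Ag2S NPs and 6 and 0 with Ag2S NPs at 160 μg/mL. Collagen IV chain COL4A1 rose by 1.15 and 1.86 at 320 μg/mL and by 0.74 and 1.35 at 160 μg/mL for Li-doped Ag2S and Ag2S NPs (limma, adjusted p at most 1.0e-04). KRT14, a keratin of the basal filaments that hemidesmosomes hold, rose by 2.16, 1.23, 0.96 and 1.02 in that order. KRT5, its partner, rose by 1.23 with Li-doped Ag2S NPs at 320 μg/mL (adjusted p = 2.7e-07) and fell, with a log2 change of -0.38, with the same particle at 160 μg/mL (adjusted p = 0.005). KRT5 and KRT14 also belong to the keratinocyte markers above.

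Of 8 tested integrin ligands other than laminins, 7 rose in each comparison, and 1 fell with Li-doped Ag2S NPs at either dose. FN1, the fibronectin gene, rose by 2.26 and 2.32 at 320 μg/mL and by 2.79 and 1.44 at 160 μg/mL for Li-doped Ag2S and Ag2S NPs, and TNC, the gene of tenascin C, by 4.24, 5.29, 5.16 and 3.36 in that order (limma, adjusted p at most 1.1e-05). Of 29 tested adaptors and kinases of integrin adhesions, 12 rose and 8 fell with Li-doped Ag2S NPs and 12 rose and 3 fell with Ag2S NPs at 320 μg/mL, and 15 rose and 6 fell and 12 rose and 2 fell at 160 μg/mL in the same order. ACTN1, an actin crosslinker of adhesions, rose by 0.91 to 1.63, while TNS3, an adaptor between integrin tails and actin, fell in all 4 comparisons, with -1.98 the lowest value, seen with Li-doped Ag2S NPs at 160 μg/mL. Of 13 tested laminin receptors that are not integrins and enzymes that process laminin or its receptors, 5 rose and 5 fell with Li-doped Ag2S NPs at either dose. With Ag2S NPs, 6 rose and 3 fell at 320 μg/mL and 2 rose and 2 fell at 160 μg/mL. DAG1, the gene of dystroglycan, fell with Li-doped Ag2S NPs, with log2 changes of -0.66 at 320 μg/mL and -0.97 at 160 μg/mL. BCAM, a receptor for the LAMA5 chain, rose by 1.01 with Li-doped Ag2S NPs and 0.41 with Ag2S NPs at 320 μg/mL. The shares of all genes called in each comparison are those given above for the members, and the medians of these lists at 320 μg/mL were 1.03 and 1.00 for hemidesmosome and basement membrane genes, 1.70 and 1.35 for integrin ligands, 0.12 and 0.17 for adaptors and -0.03 and 0.07 for the other receptors and enzymes, with Li-doped Ag2S and Ag2S NPs.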

How the data were processed

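RNA from 15 libraries of HaCaT cells, 3 in each of 5 groups, was sequenced with paired reads of 150 bases. Reads were aligned with TopHat and assembled and quantified with Cufflinks 2.1.1 and Cuffdiff by the authors, who deposited FPKM per gene and per transcript for each library. Neither a build nor an annotation, nor a version of TopHat or Cuffdiff, is given by the sources used here. All 18179 gene IDs of the 2 gene tables are in GENCODE 29 (GRCh38), which gave names and coordinates. The control libraries stand in both tables, with equal values. Columns of the authors' comparisons (group values, log2 ratios, p and q values, calls) and the tables of 2 groups were not used.

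Members were tested within each dose (9 libraries, with control) and for dose over all 15 libraries, with limma 3.58.1 in R 4.3.3 on log2(FPKM + 0.1), with empirical Bayes variances, for genes with a mean of at least 1 FPKM. P-values were adjusted by Benjamini and Hochberg over all genes tested, with 0.05 as the threshold, and the steps were tested on simulated data. The depth per library is unknown. Alternatives were pseudocounts of 1 and 0.01, no filter, a mean of at least 5 FPKM, scaling by median ratio, fits of 2 groups only, 1 fit of all 15 libraries, and leaving out each library. Ratios were compared by exact permutation tests. All members were to be described, with values by library for those called with both particles at 320 μg/mL, between particles or by dose, and of each list at most 4 genes with the smallest p-values. The members and lists were chosen with earlier results of these data known.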

Additional observations from a re-analysis of the deposited data

Results flagged for a closer look

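The change with dose, 320 over 160 μg/mL, differed between Li-doped Ag2S NPs and Ag2S NPs for 8 of the 23 members by the interaction term of limma over the 15 libraries, at an adjusted p under 0.05, where 39.7% of all genes tested differed. That count is no larger than the share of all genes would give. The value is the log2 dose effect of Li-doped Ag2S NPs minus that of Ag2S NPs. It was -2.24 for LAMA3, -1.26 for ITGB1, -0.92 for LAMB1, -0.60 for ITGA2 and -0.38 for LAMB3. It was 1.30 for ITGB6, 0.99 for LAMB2 and 0.49 for CD151. LAMA3, ITGB1 and LAMB3 had means of 243 ± 30.4, 178 ± 26.2 and 1225 ± 7.34 FPKM with Li-doped Ag2S NPs at 320 μg/mL and of 683 ± 24.9, 321 ± 1.50 and 1346 ± 96.2 FPKM with the same particle at 160 μg/mL (SD, n = 3 each).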

How the results depend on the processing

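No called member value changed sign under any alternative. Of the 1984 alternative values of called members, 1876 kept their call and 108 lost it, 81 of them among the 1197 values that leave out 1 library. No call was lost with pseudocounts of 1 or 0.01 or a mean of at least 5 FPKM. With scaling by median ratio, the members that fell with Li-doped Ag2S NPs at 160 μg/mL numbered 5 in place of 8, and those that rose with them at 320 μg/mL 17 in place of 10. The members that differed between the particles at 320 μg/mL numbered 8, but 4 with no filter, 5 with 2 groups only and 5 with all 15 libraries in 1 fit. The cause was not tested.

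With 1 library left out, the members that rose numbered 11 to 15 with Ag2S NPs and 9 to 11 with Li-doped Ag2S NPs at 160 μg/mL, and 14 to 16 and 9 to 14 at 320 μg/mL. Those that fell numbered 3 to 5 and 5 to 8 at 160 μg/mL, and 4 to 5 and 4 to 5 at 320 μg/mL. Members that differed between the particles numbered 14 to 18 at 160 μg/mL and 3 to 11 at 320 μg/mL. Calls for dose numbered 2 to 3 with Ag2S NPs and 11 to 15 with Li-doped Ag2S NPs, and 8 to 12 for the difference of the dose effects. No paired analysis was possible because the replicate numbers 1 to 15 differ between the groups. Depth cannot be read from FPKM, so no limit from counting is given for members near 0.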
